A study of Mus musculus with 12 samples.

Results

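Glycolysis, the import of glucose, the export of lactate and the turnover of glycogen were followed through 32 genes, chosen by symbol among the 49315 genes of the deposited count table. The set holds 3 glucose transporters, 3 hexokinases, 8 genes from the hexose phosphate isomerase to aldolase, 8 from triose phosphate isomerase to pyruvate kinase, 4 of lactate dehydrogenase and lactate transport and 6 of glycogen metabolism. RNA was sequenced from 12 libraries of cells of C57BL/6 mice, 3 in each of 4 groups. The first group was group 2 innate lymphoid cells (ILC2s) cultured with eosinophils and the second was ILC2s cultured alone. The third group was eosinophils cultured with ILC2s and the fourth was eosinophils cultured alone. ILC2s are tissue lymphocytes that lack antigen receptors and make type 2 cytokines, and eosinophils are granulocytes that act in the same kind of immune response.

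The ILC2s of both groups came from lung, were depleted of lineage-positive cells and sorted. Expansion used IL-33 and IL-25 together with IL-2 and IL-7, and in the last 48 h before washing only IL-2 and IL-7 were given. The eosinophils of both groups were blood cells that passed bead columns for B220 and CD90, which retain B cells and T cells. IL-33 was given to them for 24 h before washing. Coculture and culture alone both lasted 24 h without cytokines, and the cell types were then separated by flow cytometry. No eosinophils without IL-33 and no freshly isolated cells were compared, so cell type, tissue of origin and earlier cytokines cannot be told apart between ILC2s and eosinophils. The labels give no age, cell number or glucose content of the medium, and do not say whether cells cultured alone were also sorted.

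Glycolysis splits glucose into pyruvate in the cytosol, first spending ATP and then returning more of it. Glucose enters through facilitative transporters of the SLC2A (GLUT) family, is trapped as glucose 6-phosphate by hexokinase, and passes the committing step at phosphofructokinase. Lactate dehydrogenase turns pyruvate into lactate, which regenerates the NAD+ that glyceraldehyde 3-phosphate dehydrogenase needs, and the SLC16A (MCT) carriers move lactate across the plasma membrane. Many steps have several isozymes encoded by separate genes, and activated lymphocytes are known for switching this pathway on. Glycogen, the stored form of glucose, is built from UDP-glucose on a glycogenin core and broken down by glycogen phosphorylase, and granulocytes are known to hold a store of it.

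Library totals were 16769929 to 22928961 counts, so 3 counts, the limit that a count of 0 allows, correspond to 0.131 to 0.179 CPM (counts scaled to a common library size). Levels below are CPM after TMM scaling of all 12 libraries, and ± is the SD over 3 libraries unless it follows a log2 fold change, where it is the standard error. The labels do not say that replicates came from separate animals or cultures, so a p-value here reflects only how far these libraries scatter, which may be technical. In bulk RNA, fewer cells of a type and less RNA per cell cannot be told apart. The summed level of 12 eosinophil markers was 2.97 to 4.12 CPM in ILC2s with eosinophils and 2.65 to 3.15 CPM in ILC2s alone, with 2 and 1 of the markers at 0. The same sum was 12315 to 12640 CPM in eosinophils with ILC2s and 8997 to 9995 CPM in eosinophils alone. The level in ILC2s with eosinophils was 0.0291% of that in cocultured eosinophils. Of the ILC2 markers, the lineage factor Gata3 had 705.5 and 747 CPM in ILC2s with eosinophils and ILC2s alone, against 0.315 and 1.46 CPM in eosinophils with ILC2s and eosinophils alone. The ILC2 list as a whole summed to 1344 to 1423 CPM in eosinophils with ILC2s and 1646 to 1742 CPM in eosinophils alone, where it holds genes that eosinophils also express. Among the eosinophil markers, Epx, which encodes eosinophil peroxidase, was low in both eosinophil groups (15.3 and 11.9 CPM, cocultured and alone), while Siglecf, a surface lectin of eosinophils, had 1373 and 1370 CPM.

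In ILC2s, coculture with eosinophils went with higher RNA of nearly the whole pathway. Of the 32 genes, all of which could be tested, 27 rose, 2 fell and 3 were not called (edgeR quasi-likelihood test with Benjamini-Hochberg adjustment over all genes, called at an adjusted p under 0.05). Among all 14438 genes tested, 36.8% rose and 35.6% fell. More than 2-fold rises were found for 20 of the 32 genes, against 14% of all genes, and a fall of more than 2-fold for 1, Eno3, against 9.89% of all genes. The median log2 fold change was 1.43 over the 32 genes and 0.0029 over all genes tested. The mitochondrial share of counts was 1.56% to 1.65% in ILC2s with eosinophils and 1.13% to 1.15% in ILC2s alone, and lists of 12 markers each of other cell types were summed. The basophil and mast cell list came to 57.6 to 65.6 CPM in ILC2s with eosinophils and 132 to 143 CPM in ILC2s alone, with 3 and 5 markers at 0, nearly all of it Kit (55.4 and 133 CPM). The red cell and platelet list came to 15.2 to 18.9 CPM with eosinophils and 4.46 to 5.86 CPM alone, with 3 and 6 markers at 0, where the alpha globin gene Hba-a1 had 14.4 and 0.390 CPM and the beta globin gene Hbb-bs was at 0 counts in both. Neutrophil markers summed to 1.86 to 5.91 CPM with eosinophils and 0.384 to 0.765 CPM alone, with 2 and 5 markers at 0. The lung stroma list came to 104 to 118 CPM with eosinophils and 148 to 152 CPM alone, with 1 and 1 markers at 0, mostly Pecam1 (106 and 144 CPM). Markers of T, NK and B cells summed to 82.4 to 91.0 CPM with eosinophils and 75.6 to 80.3 CPM alone, with 3 and 1 markers at 0, mostly Cd3g (81.1 and 69.2 CPM). The list of monocytes, macrophages and dendritic cells overlapped between the groups (22.1 to 29.6 and 19.9 to 22.5 CPM, none at 0). The part of these markers in the ILC2 changes was not tested.

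In eosinophils, coculture with ILC2s went with lower RNA of most of the same genes. Of 29 genes tested, 22 fell, 1 rose (Pygb) and 6 were not called, where 13.5% of the 13109 genes tested fell and 11.4% rose. Falls of more than 2-fold were found for 15 genes, against 4.61% of all genes, while the rise of Pygb was 1.23-fold and 1.15% of all genes rose more than 2-fold. The median log2 fold change was -1.15, against 0.0044 over all genes. Eno2, Ldhb and Slc16a1 had too few counts in eosinophils to be tested. A list of 12 neutrophil markers summed to 828 to 931 CPM in eosinophils with ILC2s and 334 to 362 CPM in eosinophils alone, with 2 and 1 markers at 0. Retnlg, a secreted protein of neutrophils, made up 752 and 115 CPM of these sums. Cxcr2 of the same list went the other way, with 120 and 215 CPM, and the neutrophil surface marker Ly6g had 1.72 and 2.71 CPM. A list of 12 basophil and mast cell markers summed to 115 to 128 CPM in eosinophils with ILC2s and 231 to 262 CPM in eosinophils alone. With 4 and 1 markers at 0, each cocultured library lay below each lone one. The part of these other cell types in the eosinophil results was not tested. Lists of 12 markers each for T, NK and B cells (17.5 to 18.8 and 13.2 to 18.0 CPM), monocytes, macrophages and dendritic cells (2204 to 2245 and 2310 to 2445 CPM), red cells and platelets (583 to 603 and 586 to 650 CPM) and lung stroma (404 to 434 and 355 to 377 CPM) were also measured, each given for eosinophils with ILC2s and then eosinophils alone.

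**Figure D1:**
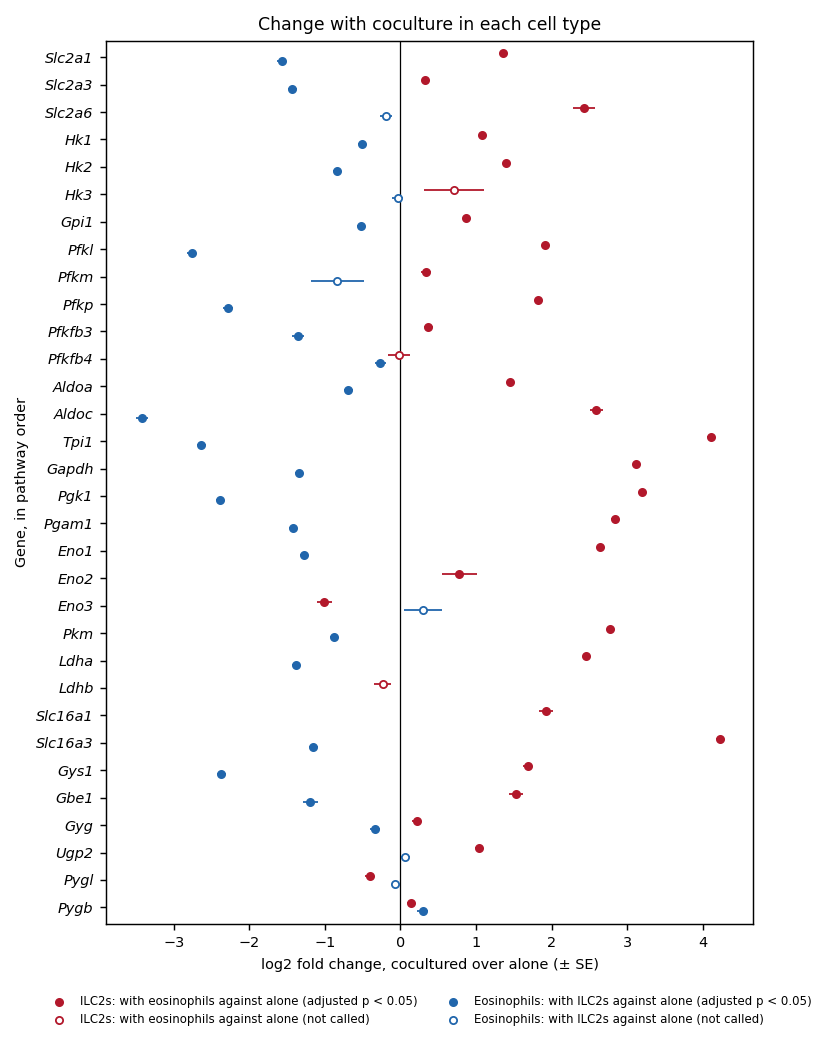
Log2 fold change of each of the 32 genes (vertical axis, grouped by step) on coculture, with ILC2s and eosinophils as separate points and bars of 1 standard error (horizontal axis, cocultured over alone). Filled points passed an adjusted p under 0.05; most ILC2 points lie right of 0, up to 4.23 for Slc16a3, and most eosinophil points left of it, down to -3.43 for Aldoc.

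Both directions were found together in 21 of the 29 genes tested in both cell types, which rose in ILC2s and fell in eosinophils. Over all 11963 genes tested in both, 789 (6.6%) had that pattern. From glucose entry to lactate export each step held at least 1 of them, and among the glycogen genes they included neither phosphorylase nor Ugp2. The 21 genes were Slc2a1, Slc2a3, Hk1, Hk2, Gpi1, Pfkl, Pfkp, Pfkfb3, Aldoa, Aldoc, Tpi1, Gapdh, Pgk1, Pgam1, Eno1, Pkm, Ldha, Slc16a3, Gys1, Gbe1 and Gyg. Pygb rose in both cell types, a pattern of 3.83% of all genes. None of the 29 genes fell in both cell types, or fell in ILC2s and rose in eosinophils, patterns of 3.26% and 5.57% of all genes. The 2 genes that fell in ILC2s, Eno3 and Pygl, were not called in eosinophils. Slc2a6, Pfkm and Ugp2 rose in ILC2s and were not called in eosinophils, and Hk3 was called in neither. The shares of all genes with these last patterns were not counted, so they have no background beside them.

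The glucose transporters differed in how far they moved. Slc2a1 (chr4:119108711-119137983, mm10) encodes GLUT1, a carrier of basal glucose uptake in many cells. It had 186, 185 and 200 CPM in ILC2s with eosinophils, against 76.3, 68.9 and 75.4 CPM in ILC2s alone. Its level was 222, 208 and 215 CPM in eosinophils with ILC2s, against 636, 580 and 663 CPM in eosinophils alone. The groups overlapped in neither cell type, and cocultured ILC2s and cocultured eosinophils came close to each other. Slc2a1 rose by 1.36 ± 0.045 on the log2 scale in ILC2s (edgeR adjusted p = 3.3e-21) and fell by 1.57 ± 0.060 in eosinophils (edgeR adjusted p = 4.1e-10).

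Slc2a3 encodes GLUT3, a carrier with a high affinity for glucose. In ILC2s it moved little, with 158, 161 and 168 CPM with eosinophils against 132, 131 and 126 CPM alone, a log2 fold change of 0.32 ± 0.040 (edgeR adjusted p = 3.7e-08). Its level in eosinophils was 447, 466 and 442 CPM with ILC2s against 1255, 1198 and 1123 CPM alone, and fell by 1.43 on the log2 scale. Slc2a6 (GLUT6, a carrier found mainly on intracellular membranes) was the transporter with the largest relative rise in ILC2s. It had 14.03, 15.6 and 13.4 CPM in ILC2s with eosinophils, against 2.97, 3.20 and 1.92 CPM in ILC2s alone, a log2 fold change of 2.43. In eosinophils Slc2a6 had 86.1, 83.4 and 82.2 CPM with ILC2s, against 85.5, 88.4 and 108 CPM alone, which overlapped and was not called (edgeR adjusted p = 0.10). It was called lower with the replicate block (log2 fold change -0.19, edgeR adjusted p = 0.0335) and without the second library of eosinophils alone (-0.23, edgeR adjusted p = 0.0402).

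Hexokinases phosphorylate glucose on entry. Hk1 (chr10:62268855-62379908), the widely expressed form that binds mitochondria, had 373, 383 and 379 CPM in ILC2s with eosinophils, against 186, 175 and 174 CPM in ILC2s alone. Hk2 (chr6:82725025-82774454), an inducible form that also binds mitochondria, had 159, 151 and 170 CPM in ILC2s with eosinophils, against 57.0, 57.9 and 65.1 CPM in ILC2s alone. Both rose in ILC2s without overlap, by 1.08 ± 0.039 and 1.40 ± 0.051 on the log2 scale. In eosinophils Hk1 had 222, 227 and 216 CPM with ILC2s against 308, 311 and 305 CPM alone. Hk2 in eosinophils had 464, 465 and 448 CPM with ILC2s against 816, 811 and 798 CPM alone. The log2 fold changes in eosinophils were -0.50 ± 0.054 for Hk1 and -0.85 ± 0.051 for Hk2, again without overlap. Hk3, a form expressed in myeloid cells, was called in neither coculture comparison. In the fit of all 12 libraries Hk3 was called higher in cocultured ILC2s (log2 fold change 0.72, edgeR adjusted p = 0.0319). It averaged 0.812 ± 0.172 CPM in ILC2s with eosinophils and 0.497 ± 0.110 CPM in ILC2s alone, and 54.8 ± 4.18 CPM in eosinophils with ILC2s and 55.0 ± 2.02 CPM in eosinophils alone.

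From the isomerase to aldolase, 7 of 8 genes rose in ILC2s and 7 of 8 fell in eosinophils, where 36.8% of all genes tested rose in ILC2s and 13.5% fell in eosinophils. Pfkl (chr10:77986947-78010083) encodes the liver-type subunit of phosphofructokinase, the committing enzyme. Pfkl had 313, 313 and 327 CPM in ILC2s with eosinophils, against 87.3, 82.0 and 82.0 CPM in ILC2s alone. In eosinophils its level was 68.7, 65.8 and 66.6 CPM with ILC2s, against 446, 431 and 459 CPM alone. The order of the cell types differed between the cultures: Pfkl was lower in ILC2s than in eosinophils when each was alone and higher when both were cocultured. Pfkl rose by 1.92 ± 0.040 in ILC2s (edgeR adjusted p = 8.5e-26) and fell by 2.76 ± 0.057 in eosinophils (edgeR adjusted p = 2.2e-12), on the log2 scale.

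The platelet-type subunit gene Pfkp had a like course. It had 561, 570 and 594 CPM in ILC2s with eosinophils, against 162, 162 and 163 CPM in ILC2s alone. Eosinophils had Pfkp levels of 125, 140 and 126 CPM with ILC2s, against 640, 641 and 585 CPM alone. Pfkp shares 748 exon bases with Pitrm1 on the other strand, and the strand setting of the counting is not given in the sources used here. Pfkm, the muscle-type subunit, was a gene of ILC2s: 41.0 ± 2.87 CPM with eosinophils and 32.1 ± 1.61 CPM alone, a rise of 0.34 on the log2 scale, against 0.895 and 1.57 CPM in cocultured and lone eosinophils. In eosinophils Pfkm was not called, but it was called lower in the fit of all 12 libraries (-0.80, edgeR adjusted p = 0.0208). Pfkm also shares exon bases, 359 summed over Senp1 on the other strand and Gm26513 on the same strand. Those genes held 15181 counts over their whole lengths in the 12 libraries.

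Pfkfb3 and Pfkfb4 encode enzymes that make and remove the sugar bisphosphate that activates phosphofructokinase. Pfkfb3 had 49.2, 50.4 and 54.3 CPM in ILC2s with eosinophils, against 42.0, 35.9 and 40.6 CPM in ILC2s alone. In eosinophils it had 90.1, 92.7 and 90.6 CPM with ILC2s, against 223, 252 and 211 CPM alone. The rise of Pfkfb3 in ILC2s was small (log2 fold change 0.37) and its fall in eosinophils larger (-1.36). Pfkfb4 was not called in ILC2s, at 6.06 ± 0.606 CPM with eosinophils and 6.12 ± 1.11 CPM alone. Its fall in eosinophils was small, to 46.8 ± 2.39 CPM with ILC2s against 55.2 ± 3.24 CPM alone. That call (edgeR adjusted p = 0.016) was lost without the second cocultured eosinophil library (0.0655) or without the third (0.0859). Gpi1, the isomerase that makes fructose 6-phosphate, averaged 954 ± 43.2 CPM in ILC2s with eosinophils and 522 ± 19.0 CPM in ILC2s alone. In eosinophils Gpi1 averaged 1981 ± 47.2 CPM with ILC2s and 2793 ± 195 CPM alone.

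Aldolase cleaves fructose bisphosphate into a pair of trioses. Aldoa, the predominant form, had 1920, 2020 and 2200 CPM in ILC2s with eosinophils, against 746, 733 and 755 CPM in ILC2s alone. In eosinophils it had 3081, 2979 and 3219 CPM with ILC2s, against 4745, 4462 and 5463 CPM alone. Aldoa rose by 1.45 ± 0.041 in ILC2s and fell by 0.69 ± 0.064 in eosinophils on the log2 scale. Aldoc (chr11:78322968-78327781), known as the aldolase of brain, was far less abundant per length (2.14% of the counts per kilobase of Aldoa and Aldoc in ILC2s with eosinophils). It had 48.5, 47.3 and 54.6 CPM in ILC2s with eosinophils, against 9.25, 7.47 and 8.13 CPM in ILC2s alone. In eosinophils it had 11.1, 9.72 and 10.2 CPM with ILC2s, against 111, 103 and 113 CPM alone. Aldoc fell by 3.43 ± 0.081 on the log2 scale in eosinophils, the most of the 29 genes tested (edgeR adjusted p = 5.6e-12), and rose by 2.59 ± 0.084 in ILC2s.

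The steps from triose phosphate isomerase to pyruvate kinase held the largest rises of ILC2s among the enzymes, with a median log2 fold change of 2.81 over the 8 genes. Tpi1 (chr6:124810586-124814296) encodes triose phosphate isomerase, which interconverts the trioses. It had 840, 853 and 897 CPM in ILC2s with eosinophils, against 54.7, 46.5 and 48.2 CPM in ILC2s alone. Its level in eosinophils was 242, 225 and 246 CPM with ILC2s, against 1447, 1383 and 1512 CPM alone. The rise in ILC2s was 17.3-fold (log2 fold change 4.11 ± 0.051, edgeR adjusted p = 7.5e-31) and the fall in eosinophils 6.21-fold, with no overlap between groups. On the log2 scale Tpi1 fell by 2.63 ± 0.059 in eosinophils (edgeR adjusted p = 4.3e-12).

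Pgk1 (chrX:106187100-106203699) encodes phosphoglycerate kinase, the first step that returns ATP. It had 1314, 1333 and 1400 CPM in ILC2s with eosinophils, against 153, 140 and 146 CPM in ILC2s alone. Eosinophils had Pgk1 levels of 226, 217 and 232 CPM with ILC2s, against 1164, 1123 and 1180 CPM alone. Each of the 3 libraries of cocultured ILC2s exceeded each library of lone eosinophils, and by mean level ILC2s with eosinophils were the highest group for 7 of the 32 genes, against 29.5% of all genes. Pgk1 rose by 3.20 ± 0.043 on the log2 scale in ILC2s (edgeR adjusted p = 2.5e-30) and fell by 2.39 ± 0.055 in eosinophils (edgeR adjusted p = 4.6e-12).

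Gapdh, which oxidises glyceraldehyde 3-phosphate and is often used as a reference gene, was among the genes that changed most. It had 2292, 2263 and 2404 CPM in ILC2s with eosinophils, against 268, 259 and 270 CPM in ILC2s alone. In eosinophils Gapdh had 1577, 1514 and 1617 CPM with ILC2s, against 3835, 3660 and 4199 CPM alone. The groups were apart in both cell types, with log2 fold changes of 3.12 ± 0.039 in ILC2s (edgeR adjusted p = 7e-31) and in eosinophils of -1.34 ± 0.056 (edgeR adjusted p = 9.8e-10). Pgam1, the phosphoglycerate mutase, had 167, 162 and 172 CPM in ILC2s with eosinophils, against 24.2, 22.8 and 22.8 CPM in ILC2s alone. In eosinophils Pgam1 had 129, 132 and 130 CPM with ILC2s, against 338, 340 and 346 CPM alone. Its log2 fold changes were 2.84 ± 0.048 in ILC2s and -1.42 ± 0.053 in eosinophils.

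Enolase makes phosphoenolpyruvate, and its 3 genes did not move together in ILC2s. Eno1, the form of most tissues, had 1489, 1514 and 1555 CPM in ILC2s with eosinophils, against 255, 232 and 238 CPM in ILC2s alone. Eno3, known as the muscle enolase, had 9.48, 8.82 and 8.41 CPM in ILC2s with eosinophils, against 18.8, 18.5 and 16.3 CPM in ILC2s alone. Eno1 rose by 2.65 ± 0.041 on the log2 scale (edgeR adjusted p = 7.2e-29), whereas Eno3 fell by 1.01 ± 0.099 (edgeR adjusted p = 3.8e-10). Eno2, the neuronal form, averaged 3.04 ± 0.521 CPM in ILC2s with eosinophils and 1.74 ± 0.411 CPM in ILC2s alone, a rise of 0.78. In eosinophils Eno1 had 1485, 1398 and 1519 CPM with ILC2s, against 3399, 3365 and 3713 CPM alone, and Eno3 was not called.

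Pkm encodes pyruvate kinase, whose M1 and M2 proteins come from alternative exons that gene counts do not separate. It had 2972, 2956 and 3044 CPM in ILC2s with eosinophils, against 451, 409 and 440 CPM in ILC2s alone. Its level in eosinophils was 1935, 1898 and 2013 CPM with ILC2s, against 3435, 3421 and 3694 CPM alone. Pkm rose by 2.78 ± 0.039 in ILC2s and fell by 0.88 ± 0.050 in eosinophils on the log2 scale, without overlap in either. Pkm shares 767 exon bases with Gm49759 on the same strand, a gene with 34613 counts over its whole length in the 12 libraries. Slc2a1, Hk1, Hk3, Gpi1, Aldoa, Tpi1, Gapdh and Ugp2 share exon bases with genes on the other strand, from 25 for Aldoa to 741 for Gpi1. Reads in shared bases cannot be told apart in gene counts. Near-identical copies elsewhere in the genome exist for Gapdh, Pgk1, Tpi1, Eno1, Pgam1, Gpi1, Pkm, Ldha and Ldhb, and how multiply mapped reads were counted is not given in the sources used here, so these 9 genes are uncertain to that extent. Copies at 95% identity or more held between 0.0201% of the gene's own counts for Ldha and 1.32% for Pgam1.

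**Figure D2:**
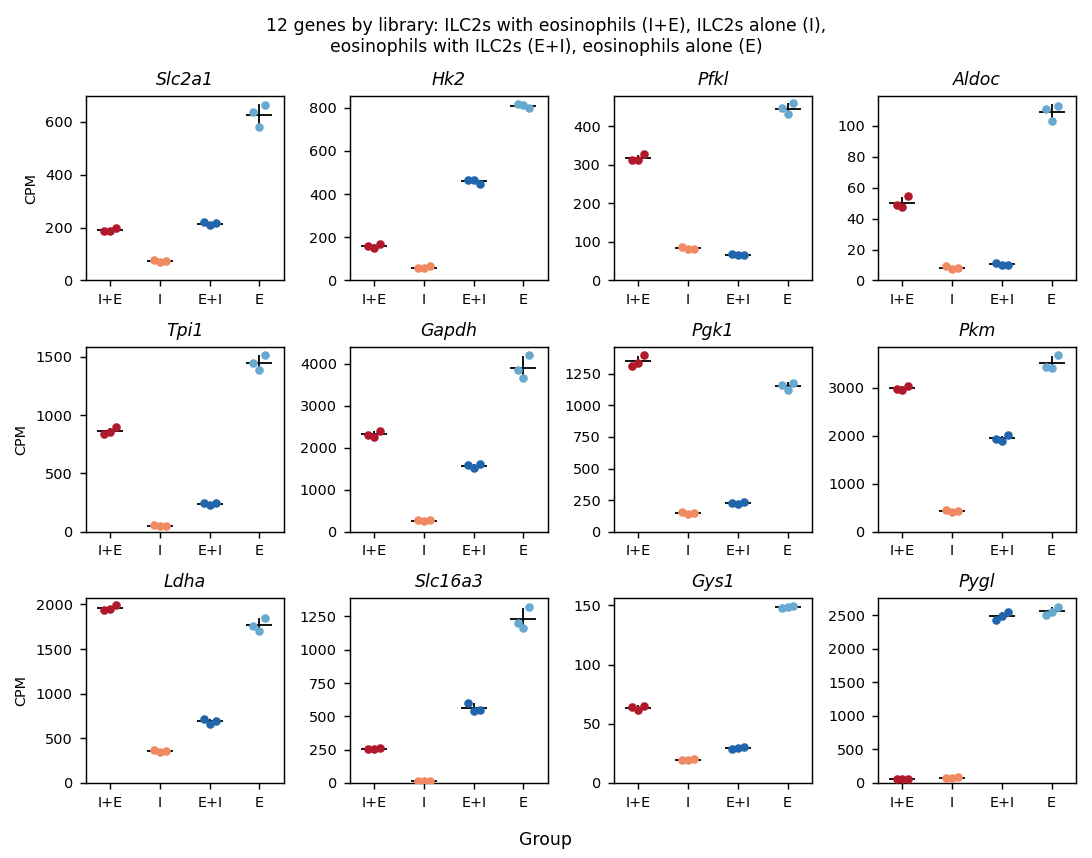
CPM of 12 genes in each library (vertical axes, linear and starting at 0) for the 4 groups (horizontal axes), with a point per library, a horizontal line for the mean and a vertical line for the SD. The cocultured ILC2 libraries lie above the lone ones for Tpi1 (840 to 897 against 46.5 to 54.7 CPM), while the eosinophil libraries run the other way (225 to 246 against 1383 to 1512 CPM).

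At the lactate end, Ldha and Slc16a3 moved with the enzymes. Ldha encodes the lactate dehydrogenase subunit that favours making lactate. It had 1941, 1950 and 1988 CPM in ILC2s with eosinophils, against 372, 343 and 355 CPM in ILC2s alone. In eosinophils it had 716, 661 and 696 CPM with ILC2s, against 1756, 1700 and 1852 CPM alone. No library of one group overlapped with the other within a cell type, and the log2 fold changes were 2.45 ± 0.038 in ILC2s and -1.39 ± 0.054 in eosinophils. Ldhb, the subunit of oxidative tissues, was not called in ILC2s, at 9.28 ± 0.558 CPM with eosinophils and 10.9 ± 1.51 CPM alone (edgeR adjusted p = 0.066). Ldhb was called lower there with library totals (log2 fold change -0.39, edgeR adjusted p = 0.00286) and with upper quartile scaling (-0.30, edgeR adjusted p = 0.0197). It was also called lower without the third library of ILC2s alone (-0.31, edgeR adjusted p = 0.0303). It had 9, 9 and 7 counts in eosinophils with ILC2s and 5, 3 and 2 counts in eosinophils alone.

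Slc16a3 (chr11:120948480-120960868) encodes MCT4, a lactate exporter of highly glycolytic cells, and had the largest rise of the 32 genes. It had 255, 253 and 265 CPM in ILC2s with eosinophils, against 15.01, 13.5 and 12.7 CPM in ILC2s alone, an 18.7-fold difference (log2 fold change 4.23 ± 0.053, edgeR adjusted p = 7.5e-31). Its level in eosinophils was 602, 541 and 547 CPM with ILC2s, against 1197, 1165 and 1322 CPM alone. Slc16a3 fell by 1.15 ± 0.062 on the log2 scale in eosinophils (edgeR adjusted p = 1.2e-08), yet ILC2s with eosinophils still held less of it than eosinophils with ILC2s. Slc16a1 (MCT1, a carrier that works in both directions) had 35.2, 31.96 and 30.2 CPM in ILC2s with eosinophils, against 7.67, 8.91 and 8.76 CPM in ILC2s alone, a rise of 1.93 ± 0.090. In eosinophils it was near the limit of detection, with 4, 2 and 4 counts with ILC2s and 11, 1 and 2 counts alone.

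The 6 glycogen genes did not move together: in ILC2s 5 rose and 1 fell, and in eosinophils 1 rose, 3 fell and 2 were not called. Over all genes tested, 36.8% rose and 35.6% fell in ILC2s, and 11.4% rose and 13.5% fell in eosinophils. Gys1 (chr7:45434844-45456619) encodes the glycogen synthase of muscle and other non-liver tissues. It had 64.4, 61.7 and 65.1 CPM in ILC2s with eosinophils, against 19.3, 19.7 and 19.95 CPM in ILC2s alone. In eosinophils it had 28.7, 29.4 and 30.0 CPM with ILC2s, against 148, 149 and 150 CPM alone. Gys1 fell by 2.37 ± 0.063 on the log2 scale in eosinophils (edgeR adjusted p = 1.5e-11) and rose by 1.69 ± 0.060 in ILC2s. Gys1 shares 310 exon bases with Ruvbl2 on the other strand, a gene with 9996 counts over its whole length in the 12 libraries. How many reads fell in the shared bases cannot be read from gene counts.

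The branching enzyme gene Gbe1 averaged 24.0 ± 1.68 CPM in ILC2s with eosinophils and 8.24 ± 0.881 CPM in ILC2s alone, and 25.1 ± 1.40 CPM in eosinophils with ILC2s and 56.2 ± 6.46 CPM in eosinophils alone. Ugp2, which makes UDP-glucose, rose in ILC2s (69.0 ± 1.63 CPM with eosinophils, 33.4 ± 1.76 CPM alone) and was not called in eosinophils (104 ± 8.06 CPM with ILC2s, 97.7 ± 3.17 CPM alone). Gyg, which encodes the glycogenin primer, changed by 0.22 in ILC2s and -0.34 in eosinophils on the log2 scale. Scaled by library totals, the ILC2 value was 0.06 (edgeR adjusted p = 0.361).

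Pygl (chr12:70190811-70231488), the liver-type phosphorylase that releases glucose 1-phosphate, was very abundant in eosinophils and did not follow the other genes. It had 2435, 2487 and 2557 CPM in eosinophils with ILC2s, against 2501, 2555 and 2630 CPM in eosinophils alone, which overlapped (log2 fold change -0.07 ± 0.048, edgeR adjusted p = 0.34). In ILC2s it fell by 0.41 ± 0.055 on the log2 scale (edgeR adjusted p = 1.2e-07), with 57.4, 56.7 and 65.9 CPM with eosinophils against 75.3, 80.0 and 82.4 CPM alone. Pygb, the brain-type phosphorylase, had 113, 112 and 109 CPM in ILC2s with eosinophils, against 103, 105 and 94.8 CPM in ILC2s alone, a log2 fold change of 0.13 that was -0.02 with scaling by library totals. In eosinophils Pygb had 49.0, 49.4 and 51.4 CPM with ILC2s, against 42.6, 37.7 and 39.3 CPM alone. This rise of 0.30 on the log2 scale (edgeR adjusted p = 0.0094) was lost without the third cocultured eosinophil library (0.0533).

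The part of all counts that the pathway took was computed over the 17 genes of the enzymes from hexokinase to pyruvate kinase, leaving out Pfkfb3 and Pfkfb4, together with Ldha and Ldhb. It was 1.72%, 1.74% and 1.80% in ILC2s with eosinophils, against 0.427%, 0.407% and 0.419% in ILC2s alone. In eosinophils it was 1.05%, 1.02% and 1.08% with ILC2s, against 2.13%, 2.08% and 2.24% alone. The share was lowest in ILC2s alone and highest in eosinophils alone, and cocultured ILC2s lay above cocultured eosinophils.

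Isozyme use was compared as each gene's share of its family's counts per kilobase of exon. In 6 of 9 families 1 gene led by mean share in all 4 groups: Pfkl, Pfkfb3, Aldoa, Eno1, Ldha and Slc16a3. The lead of Pfkl over Pfkp was narrow in ILC2s alone (36.6% against 35.4%) and in eosinophils with ILC2s (50.1% against 48.5%). In the second library of eosinophils with ILC2s, Pfkp led (50.9% against 47.9%). The hexokinases and the phosphorylases differed by cell type. Hk1 made up 62.2% and 67.2% of hexokinase RNA in ILC2s with eosinophils and ILC2s alone, while Hk2 made up 65.3% and 72.6% in eosinophils with ILC2s and eosinophils alone. Pygl held 27.3% and 35.4% of phosphorylase RNA in ILC2s with eosinophils and ILC2s alone, against 97.2% and 97.8% in eosinophils with ILC2s and eosinophils alone. With the length of the longest transcript in place of all exons, Pygl held 40.0% in ILC2s with eosinophils and 49.3% ± 2.29 in ILC2s alone. The lead of Pygb in ILC2s alone was then narrow, at 50.7% ± 2.29. Hk3 was 12.6% and 8.02% of hexokinase RNA in cocultured and lone eosinophils, and 0.310% and 0.434% in cocultured and lone ILC2s.

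**Figure D3:**
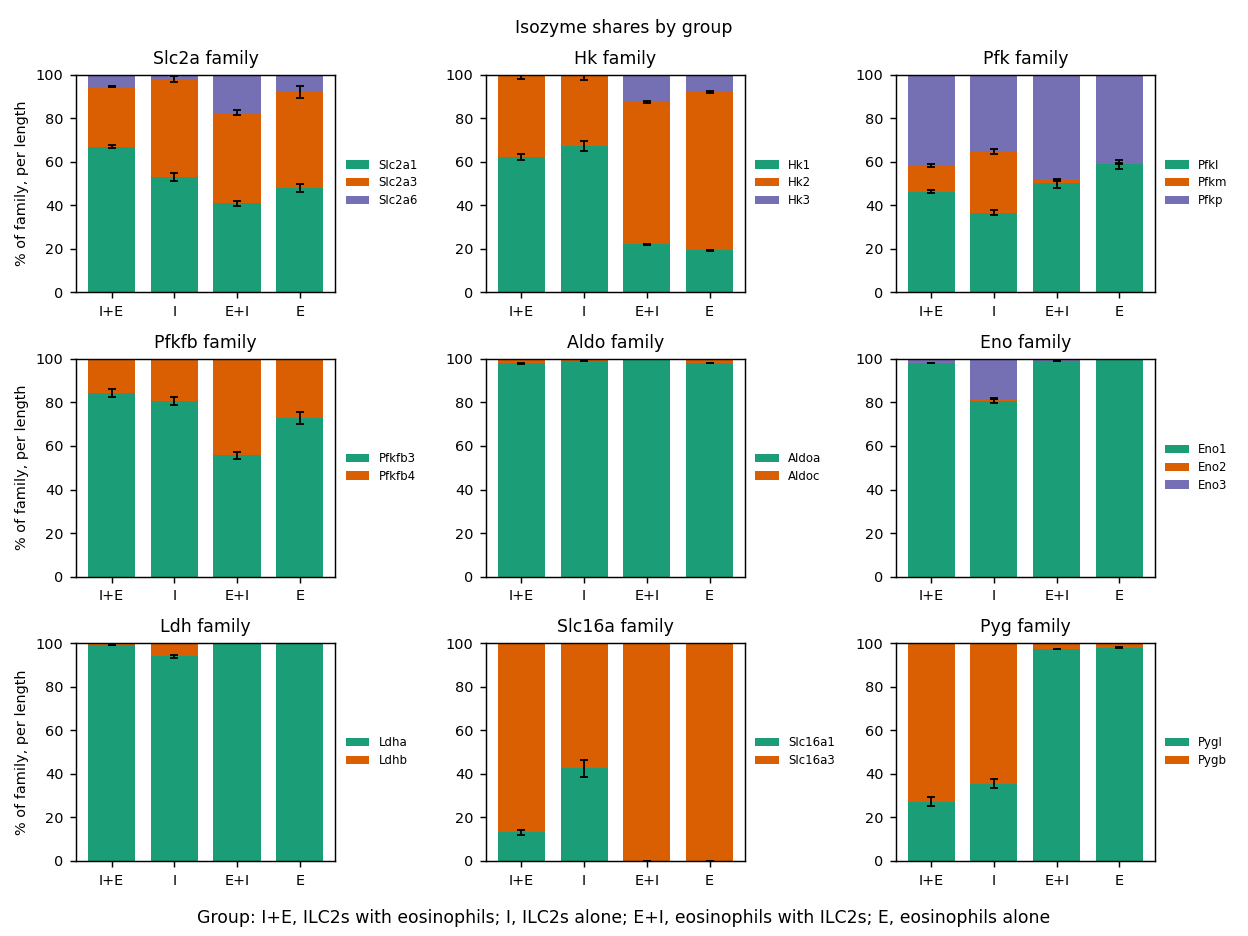
Share of each isozyme in its family's counts per kilobase (vertical axis, percent) for 9 families, each holding only its members among the 32 genes. Segments are stacked by gene and give the mean of 3 libraries per group. An SD bar at the top of a segment is for that isozyme's own share. Slc2a1, Eno1, Ldha and Slc16a3 have larger shares in ILC2s with eosinophils than in ILC2s alone, and the hexokinase and phosphorylase shares differ most between the cell types.

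Within ILC2s, the leading gene of several families held a larger share with eosinophils than alone. Slc16a3 was the main lactate carrier gene, with Slc16a1 at 13.1% of the pair in ILC2s with eosinophils and 42.5% in ILC2s alone. Eno1 held 98.0% of enolase RNA in ILC2s with eosinophils and 80.8% in ILC2s alone, where Eno3 held 1.78% and 18.5%. With the length of the longest transcript in place of all exons, Eno3 held 0.754% and 8.70%. Slc2a1 held 66.9% ± 0.735 of the RNA of the 3 glucose transporter genes in ILC2s with eosinophils and 52.8% ± 1.88 in ILC2s alone. Pfkm held 11.9% of phosphofructokinase RNA in ILC2s with eosinophils and 28.0% in ILC2s alone, and Ldhb 0.989% and 6.06% of lactate dehydrogenase RNA. By longest transcript, Ldhb held 0.655% in ILC2s with eosinophils and 4.09% in ILC2s alone.

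Per kilobase, Slc2a3 and Slc2a1 were close in both eosinophil groups. Slc2a3 held 41.6% ± 1.20 in eosinophils with ILC2s and 44.2% ± 2.76 in eosinophils alone, Slc2a1 held 41.0% ± 1.10 and 47.9% ± 1.98, and Slc2a6 held 17.4% there and 7.85% in eosinophils alone. Pfkfb3 held 55.7% of its pair in eosinophils with ILC2s and 72.7% in eosinophils alone. Aldoc held 0.298% of aldolase RNA in eosinophils with ILC2s and 1.96% in eosinophils alone, or 0.186% and 1.23% by longest transcript. With that length 20 shares moved by more than 1.5 times and 68 did not over the genes and the 4 groups, those that moved being shares of Hk1, Hk2, Aldoc, Eno2, Eno3, Ldhb and Pygb in some or all groups, and the leading gene of each family was the same. The shares of cocultured and lone cells did not overlap for 17 of 17 shares in ILC2s and 15 of 17 in eosinophils. Between the cell types, 16 of 17 did not overlap for lone cells and 17 of 17 for cocultured cells. Shares within a family depend on each other, and shares of other gene families were not counted, so these numbers have no background beside them. With 3 libraries against 3, an exact two-sided permutation test cannot go below p = 0.1, and over the 68 share comparisons the smallest adjusted value was 0.105. Without division by length, Pfkp led its family in all groups, and Slc2a3 led the transporters in every group but ILC2s with eosinophils, so the orders of Pfkl and Pfkp and of Slc2a1 and Slc2a3 depend on that step.

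Cultured alone, ILC2s held less RNA of most of these genes than eosinophils. Of the 32 genes, 26 were lower in ILC2s alone than in eosinophils alone and 6 higher (Pfkm, Eno2, Eno3, Ldhb, Slc16a1 and Pygb), against 39.9% and 40.8% of all 14525 genes tested. Differences of more than 2-fold were found for 25 genes lower and 6 higher, against 22.8% and 25.4% of all genes. The median log2 difference was -2.83 over the 32 genes and 0.027 over all genes. Hk3 stood farthest below, at 0.497 ± 0.110 CPM in ILC2s alone and 55.0 ± 2.02 CPM in eosinophils alone, followed by Slc16a3, at 13.8 ± 1.15 CPM in ILC2s alone and 1228 ± 82.9 CPM in eosinophils alone. Among the genes higher in ILC2s, Pfkm had 32.1 ± 1.61 CPM in ILC2s alone and 1.57 ± 0.356 CPM in eosinophils alone.

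Between the cocultured cells the picture was mixed. Of the 32 genes, 17 were higher in ILC2s with eosinophils than in eosinophils with ILC2s, 13 lower and 2 not called (Eno1 and Gbe1), where 43.6% of the 14634 genes tested were higher and 40.5% lower. More than 2-fold, 13 were higher and 9 lower, against 28% and 22% of all genes. Pgk1 was higher by 2.57 ± 0.049 on the log2 scale and Pfkl by 2.24 ± 0.051, both with no overlap. The glucose transporters stayed lower in ILC2s, but for Slc2a1 the difference was small (log2 difference -0.19, edgeR adjusted p = 0.00097) and was 0.21 with scaling by library totals. Pygl was 41.8-fold lower in ILC2s with eosinophils, at 60.0 ± 5.09 CPM against 2493 ± 60.8 CPM in eosinophils with ILC2s. By mean level, eosinophils alone were the highest group for 22 of the 32 genes and ILC2s alone the lowest for 22, and both held for 18. Over the 15745 genes tested in the fit of all libraries these orders were found for 22.4%, 25.5% and 10.4%.

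**Figure D4:**
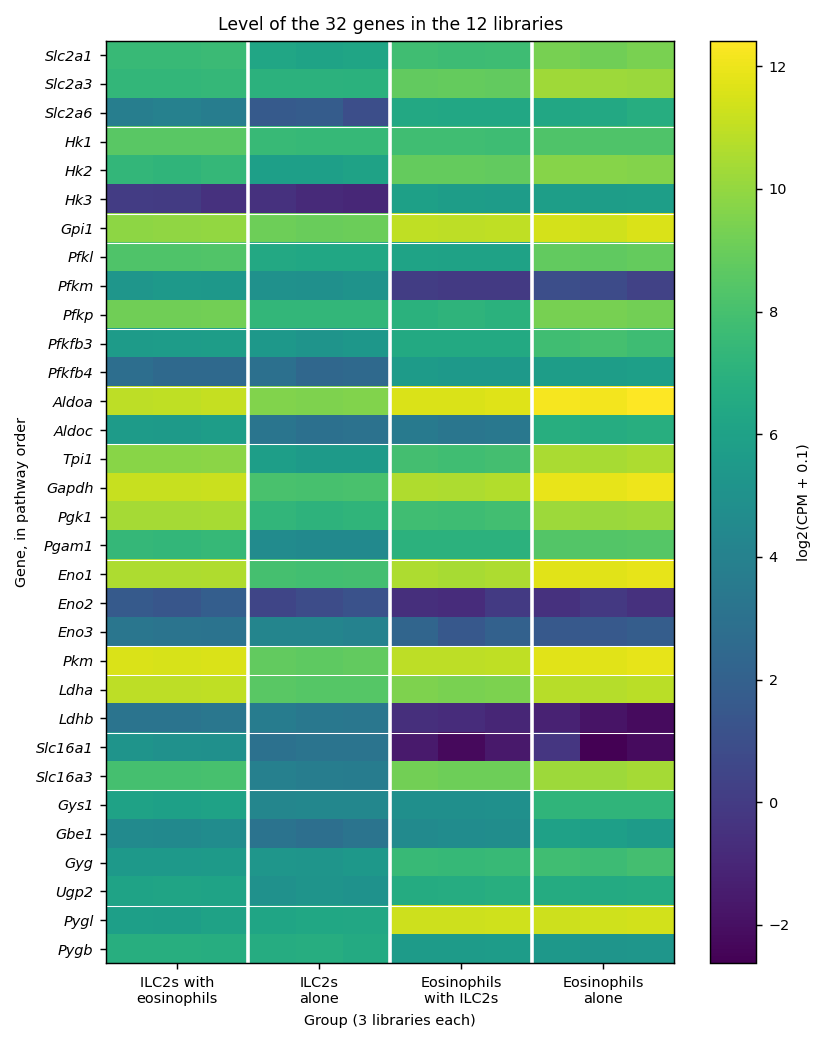
Heat map of the level of the 32 genes (rows, in pathway order) in the 12 libraries (columns, 3 per group), coloured by log2(CPM + 0.1) from dark (low) to yellow (high). By mean, eosinophils alone are the highest group for 22 genes and ILC2s alone the lowest for 22, and Pygl is bright in both eosinophil groups.

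The test of the difference itself, the response of ILC2s minus that of eosinophils in 1 fit of all 12 libraries, called 26 genes higher and 3 lower, against 26.8% and 24.8% of the 15745 genes tested. The 3 lower ones were Eno3, Ldhb and Pygl, and Pfkfb4, Eno2 and Pygb were not called. The call of Ldhb (-1.41, edgeR adjusted p = 0.0248) was lost without the low-count filter (0.0596), without the first (0.0629) or second (0.0536) library of eosinophils with ILC2s, and without the second (0.0667) or the third (0.0966) library of eosinophils alone. That of Hk3 (0.73, edgeR adjusted p = 0.0443) was lost under most alternatives, with adjusted p from 0.0587 to 0.147 where it was lost, and that of Slc16a1 without the first library of eosinophils alone (0.508). More than 2-fold, 23 were higher and 2 lower, against 13.6% and 8.94% of all genes. The median difference was 2.38 over the 32 genes and 0.013 over all genes. It was largest for Tpi1 (6.72 ± 0.091, edgeR adjusted p = 1.3e-24), Aldoc (6.00 ± 0.12) and Pgk1 (5.56 ± 0.077).

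The proximal promoters of the 4 genes with the largest such differences among those with a single RefSeq promoter entry are shown because these genes moved together, with Pygl, which did not, for contrast. They were picked after the values were seen. Each is the 250 bases before the RefSeq start of the gene in GRCm38.p6, read 5′ to 3′ on the gene's strand. Capitals mark ACGTG or GCGTG, the core letters of the hypoxia response element, on either strand, so that CACGT and CACGC are the same motifs read from the other strand. The windows are Tpi1 at chr6:124814159-124814408, minus strand, Pgk1 at chrX:106186850-106187099, plus strand, Slc16a3 at chr11:120948817-120949066, plus strand, Pfkl at chr10:78009808-78010057, minus strand, and Pygl at chr12:70227684-70227933, minus strand.
Tpi1: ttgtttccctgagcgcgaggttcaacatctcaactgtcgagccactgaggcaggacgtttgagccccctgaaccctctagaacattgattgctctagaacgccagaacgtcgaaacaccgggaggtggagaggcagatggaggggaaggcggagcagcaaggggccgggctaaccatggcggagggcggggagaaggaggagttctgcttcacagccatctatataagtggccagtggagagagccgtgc
Pgk1: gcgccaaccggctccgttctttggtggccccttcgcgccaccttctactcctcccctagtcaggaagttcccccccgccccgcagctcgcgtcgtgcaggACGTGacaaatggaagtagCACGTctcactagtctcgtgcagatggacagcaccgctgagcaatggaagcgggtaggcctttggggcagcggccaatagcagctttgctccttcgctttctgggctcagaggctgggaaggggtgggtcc
Slc16a3: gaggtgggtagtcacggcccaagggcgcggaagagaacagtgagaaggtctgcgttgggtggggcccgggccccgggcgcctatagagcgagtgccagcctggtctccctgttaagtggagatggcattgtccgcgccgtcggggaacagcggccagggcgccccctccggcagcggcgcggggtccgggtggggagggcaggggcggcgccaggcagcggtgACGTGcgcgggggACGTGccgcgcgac
Pfkl: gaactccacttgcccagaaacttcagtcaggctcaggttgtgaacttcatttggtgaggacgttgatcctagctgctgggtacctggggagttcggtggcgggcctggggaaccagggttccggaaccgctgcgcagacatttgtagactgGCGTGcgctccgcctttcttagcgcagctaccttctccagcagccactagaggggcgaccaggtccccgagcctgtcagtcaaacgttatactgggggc
Pygl: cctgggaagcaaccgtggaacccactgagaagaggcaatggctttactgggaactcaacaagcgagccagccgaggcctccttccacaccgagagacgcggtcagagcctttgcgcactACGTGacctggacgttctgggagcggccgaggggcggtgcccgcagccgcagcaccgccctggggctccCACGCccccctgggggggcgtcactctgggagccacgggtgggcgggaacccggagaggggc

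Pgk1, Slc16a3 and Pygl each held 2 such matches, Pfkl 1 and Tpi1 0. Promoter entries were found for 31 of the 32 genes, in windows of 300 bases (250 before to 50 after the start), and Slc2a3 was not among them. The letters ACGTG or GCGTG were in 34 of 44 windows (77.3%) of the 32 genes' entries and in 43.8% of all 32851 windows. CACGTG, which holds ACGTG on both strands, was in 11.4% and 7.15%. A match of letters is a description of the window and not a bound site, and Pygl held as many as Pgk1.

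Genes of the same processes outside the 32 were called about as often as all genes in ILC2s, where 36.8% of all genes rose and 35.6% fell. Of 20 other glucose and glycolysis genes tested in ILC2s, 7 rose and 7 fell. Of 19 tested in eosinophils, 2 rose and 1 fell, where 11.4% of all genes rose and 13.5% fell. Bsg, whose product basigin carries MCT1 and MCT4 to the membrane, followed the pathway: 436 ± 11.9 CPM in ILC2s with eosinophils and 122 ± 5.58 CPM in ILC2s alone, and 208 ± 13.2 CPM in eosinophils with ILC2s and 473 ± 40.6 CPM in eosinophils alone. Txnip, a restrainer of glucose uptake, fell by 1.18 in ILC2s on the log2 scale (611 ± 56.8 CPM with eosinophils, 1377 ± 19.4 CPM alone). Adpgk, the ADP-dependent glucokinase, rose in eosinophils to 663 ± 24.5 CPM with ILC2s, against 333 ± 3.38 CPM alone. Of the other genes eligible for naming, Bpgm fell by 1.09 and Gpd2 rose by 1.16 in ILC2s on the log2 scale. Ldhc rose by 0.93 in eosinophils.

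Of 20 other glycogen genes tested in ILC2s, 8 rose and 8 fell, near the 36.8% and 35.6% of all genes, and of 19 tested in eosinophils, 2 rose and 7 fell, against 11.4% and 13.5%. Pgm1, phosphoglucomutase, which links glucose 1-phosphate and glucose 6-phosphate, had the pattern of the pathway. It averaged 99.9 ± 7.87 CPM in ILC2s with eosinophils and 30.0 ± 1.89 CPM in ILC2s alone, and 30.6 ± 2.62 CPM in eosinophils with ILC2s and 149 ± 1.21 CPM in eosinophils alone. Of the other glycogen genes eligible for naming, Epm2a, Ppp1r3b and Slc37a4 also rose in ILC2s and fell in eosinophils. Pgm2l1 fell in both, with log2 fold changes of -0.43 in ILC2s and -0.45 in eosinophils. Of 20 regulators of glycolytic genes tested in ILC2s, 9 rose and 6 fell, and of 19 tested in eosinophils, 2 rose and 4 fell, against the same shares of all genes. Egln3, an oxygen-sensing prolyl hydroxylase, averaged 385 ± 17.9 CPM in ILC2s with eosinophils and 50.3 ± 0.794 CPM in ILC2s alone, and 43.9 ± 0.933 CPM in eosinophils with ILC2s and 512 ± 2.26 CPM in eosinophils alone. Hif1a, the hypoxia-inducible factor subunit, rose by 1.23 in ILC2s and was not called in eosinophils (log2 fold change -0.02 ± 0.064). The difference between these responses, 1.23 ± 0.076, was called (edgeR adjusted p = 2.7e-12).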

How the data were processed

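RNA of 12 libraries in 4 groups of 3, grouped by the labels' titles, was compared. The authors deposited raw counts of reads for each gene. Per the submitters' processing notes, the tools were STAR 2.5.2b, Subread 1.5.2 with featureCounts, Trimmomatic 0.36 and bcl2fastq 2.17, and the build was mm10. No annotation release, strand setting or rule for multiply mapped reads is given in the sources used here. Symbols, positions and exon lengths came from GENCODE M21 and the gene name table (49056 of 49315 identifiers matched). The 32 genes, the pathway and marker lists and the tests were chosen with earlier results of these data known.

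The quasi-likelihood test of edgeR 4.0.16 (R 4.3.3), after filterByExpr and TMM, was run on the 6 libraries of a comparison, or on all 12 for the difference between the responses. A Benjamini-Hochberg adjusted p under 0.05 over all genes tested made a call. Log2 fold changes come from those fits and CPM from TMM over all 12 libraries. Per-library values are given for the 10 genes with the largest called change of each coculture comparison at a mean of at least 8 CPM, and for leading isozymes; those of Slc16a1 and Eno3 were added after values were seen. From each pathway list at most 4 called genes with the smallest p were eligible for naming. Isozyme shares used merged exon lengths and were tested by exact permutation in scipy 1.17.1. Copies were found with blastn 2.17.0.

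Depth was 16769929 to 22928961 counts, and limits from it cover counting error only. No library was a duplicate: chi-square divided by its degrees of freedom was 2.57 to 19.5 over replicate pairs. On simulated counts, the tests found 80.6% of genes changed 2-fold, both among 14438 genes in ILC2s and among 13109 genes in eosinophils, with 6.43% and 5.45% of calls false, and 71.6% among 15745 genes for the difference between the responses, with 4.41% of calls false. Few genes were changed in the simulation, in random directions, so these rates do not cover scaling when many genes change, as here. Alternatives were DESeq2 1.42.0, RLE, upper quartile and library total scaling, no low-count filter, a replicate block, 1 fit of all libraries, and leaving out each library.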

Additional observations from a re-analysis of the deposited data

Results flagged for a closer look

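For 29 of the 32 genes the response to coculture differed between the cell types, by the interaction term of the edgeR fit of all 12 libraries (called at an adjusted p under 0.05). Of these, 26 were higher and 3 lower, where 26.8% of all 15745 genes tested were higher and 24.8% lower. Values are the log2 response of ILC2s minus the log2 response of eosinophils. Among the glucose transporters the difference was 2.91 for Slc2a1, 1.73 for Slc2a3 and 2.60 for Slc2a6. Among the hexokinases it was 1.56 for Hk1, 2.23 for Hk2 and 0.73 for Hk3, the last of which was lost under most alternatives. From the isomerase to aldolase it was 1.36 for Gpi1, 4.66 for Pfkl, 1.15 for Pfkm, 4.08 for Pfkp, 1.70 for Pfkfb3, 2.12 for Aldoa and 6.00 for Aldoc. From triose phosphate isomerase on it was 6.72 for Tpi1, 4.44 for Gapdh, 5.56 for Pgk1, 4.23 for Pgam1, 3.91 for Eno1 and 3.64 for Pkm, while Eno3 ran the other way at -1.32. At the lactate end it was 3.82 for Ldha, 5.36 for Slc16a3, 2.53 for Slc16a1 and -1.41 for Ldhb. Among the glycogen genes it was 4.04 for Gys1, 2.70 for Gbe1, 0.53 for Gyg, 0.96 for Ugp2 and -0.36 for Pygl.

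Slc16a1 and Ldhb rested on at most 11 counts per eosinophil library. Without the first library of eosinophils alone, the difference for Slc16a1 was 0.91 (edgeR adjusted p = 0.508).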

How the results depend on the processing

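Of the values of single genes in the 5 comparisons under the other settings, 2150 kept direction and side of the threshold, 24 lost a call, 14 gained one and 13 changed sign. With scaling by library totals, the ILC2 response of Pygb was -0.022, the eosinophil response of Hk3 0.021, and cocultured ILC2s over cocultured eosinophils 0.21 for Slc2a1 and 0.32 for Gbe1 (log2). With upper quartile scaling the last 2 were 0.013 and 0.13. Eno1 was called higher in cocultured ILC2s with both scalings (0.44 and 0.24). The median over all genes shifted under this first scaling to -0.153 in ILC2s, 0.597 between lone and 0.446 between cocultured cell types, and -0.175 for the difference of responses, and under upper quartile scaling to 0.262 and 0.249 between cell types. Without the low-count filter Pfkfb4 in ILC2s was 0.0042. Leaving out 1 library gave -0.11 to 0.12 for Pfkfb4 in ILC2s, -0.094 to 0.0092 for Hk3 and -0.0055 to 0.11 for Ugp2 in eosinophils, and -0.0018 to 0.063 for Eno1 between cocultured cells. Of these values that changed sign, only Slc2a1 and Gbe1 with library totals were called.

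The number of genes that rose in eosinophils was 0 to 1 with 1 library left out, 0 without the third cocultured library. The glycolytic share of counts, with totals times TMM factors, was 1.57% in ILC2s with eosinophils, 0.334% in ILC2s alone, 1.23% in eosinophils with ILC2s and 2.57% in eosinophils alone. The cause was not tested. In ILC2s replicate numbers did not pair the libraries (same-number correlations -0.0206 to 0.0122, unlike-number -0.0352 to 0.0426). In eosinophils the same-number correlations were 0.0324 to 0.267 and the unlike-number ones -0.248 to 0.171. The spread between replicates estimated by edgeR was 4.71% in ILC2s with and without the replicate block. In eosinophils it was 7.92% without the block and 5.7% with it. Whether eosinophil libraries of the same number share a source was not tested. With the replicate block 27 genes rose and 2 fell in ILC2s, and 1 rose and 23 fell in eosinophils. The share of all genes called with the block was not counted, so these numbers have no background beside them. Depth limits Eno2, Ldhb and Slc16a1 in eosinophils.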
